A study of Mus musculus with 7 samples.

Results

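The 9 genes described here code for the enzymes that pass nitrogen through glutamate and for the enzymes that start and reverse polyamine synthesis. They were chosen by name (Got1, Got2, Gpt, Gpt2, Glud1, Glul, Oat, Odc1 and Sat1), and all 9 had at least 1 probe set that the array's annotation assigns to a single gene symbol. They are 9 of the 12393 genes on the array with such a probe set, and had 16 of its 22626 probe sets, of which 14 were bright enough on the mean of the 7 arrays to be tested (at or above log2 5.74, the 40th percentile). Both probe sets left untested belong to Gpt2. Heart RNA on 3 KLF15-null arrays was compared with heart RNA on 4 WT arrays. All were labelled as from male C57/BL6 mice aged 3 to 4 months and fasted for 18 h. KLF15 is a zinc-finger transcription factor of the Krüppel-like family, and the sources used here do not give the design of the null allele. Values are log2 signals on Affymetrix arrays, and each difference is KLF15-null minus WT on that scale.

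Transaminases move the amino group of an amino acid onto α-ketoglutarate, which yields glutamate, and glutamate dehydrogenase or glutamine synthetase then releases or stores that nitrogen. In heart muscle the aspartate transaminases also carry the malate-aspartate shuttle, which brings the reducing equivalents of cytosolic NADH into mitochondria. Ornithine links this network to the polyamines: ornithine aminotransferase turns it towards glutamate and proline, while ornithine decarboxylase turns it into putrescine, from which spermidine and spermine are made.

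Klf15 itself, on its single probe set, averaged 6.33 ± 0.17 in KLF15-null hearts (SD, n = 3) and 8.87 ± 0.19 in WT hearts (SD, n = 4), a difference of -2.54 (limma adjusted p = 1.26e-06). The sources used here do not say whether its probes lie in the deleted part. The median signal of an array was 6.22 to 6.23 for KLF15-null and 6.31 to 6.33 for WT hearts, while at the bright end of the array KLF15-null hearts read higher, by a median of 0.30 over the top 10% of probe sets. The cardiomyocyte markers, Myh6 and Tnnt2 among them, were all bright, with 1 of 8 higher and 0 lower in KLF15-null hearts. All 7 arrays went against the label of male sex. The brightest probe set of Xist, the RNA of the inactive X chromosome, read 8.57 to 9.62 in KLF15-null and 9.82 to 9.94 in WT hearts, while 4 Y-linked genes stayed at or below 5.15 on all their 7 specific probe sets. Arrays of a genotype were alike, with r from 0.986 to 0.993 for KLF15-null and from 0.995 to 0.997 for WT hearts. KLF15-null replicate 2 stood apart: it was the lowest KLF15-null array in 8 of the 14 tested member probe sets, and limma's array weights gave it the lowest weight of the 7 arrays, 0.224. KLF15-null replicate 1 had the next lowest weight, 0.435, and KLF15-null replicate 3 the highest, 3.04. The labels do not say whether each array is a different animal, so p-values measure the spread between these arrays.

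In KLF15-null hearts the transaminase, glutamate dehydrogenase and ornithine aminotransferase genes were mostly lower, and both polyamine genes were higher. Of the 14 tested probe sets 7 were lower, 5 were higher and 2 were not past the threshold of limma's adjusted p of 0.05. The 7 lower probe sets belong to Got1, Got2, Gpt, Glud1 (both of its probe sets), Glul and Oat, and the 5 higher ones to Odc1 (all 3), Sat1 and Glul. Of all 13576 probe sets tested 23.8% were lower and 26.8% were higher, so about 1 in 2 probe sets of the array was called, 50.6% in all, and a call by itself does not set a gene apart. In the 12 called probe sets the 3 KLF15-null values lay entirely on one side of the 4 WT values, higher in 5 and lower in 7, as they did in 27.6% (higher) and 25.4% (lower) of all probe sets tested, 53.0% together. In whole hearts fewer cells of a type and less RNA per cell cannot be told apart.

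**Figure D1:**
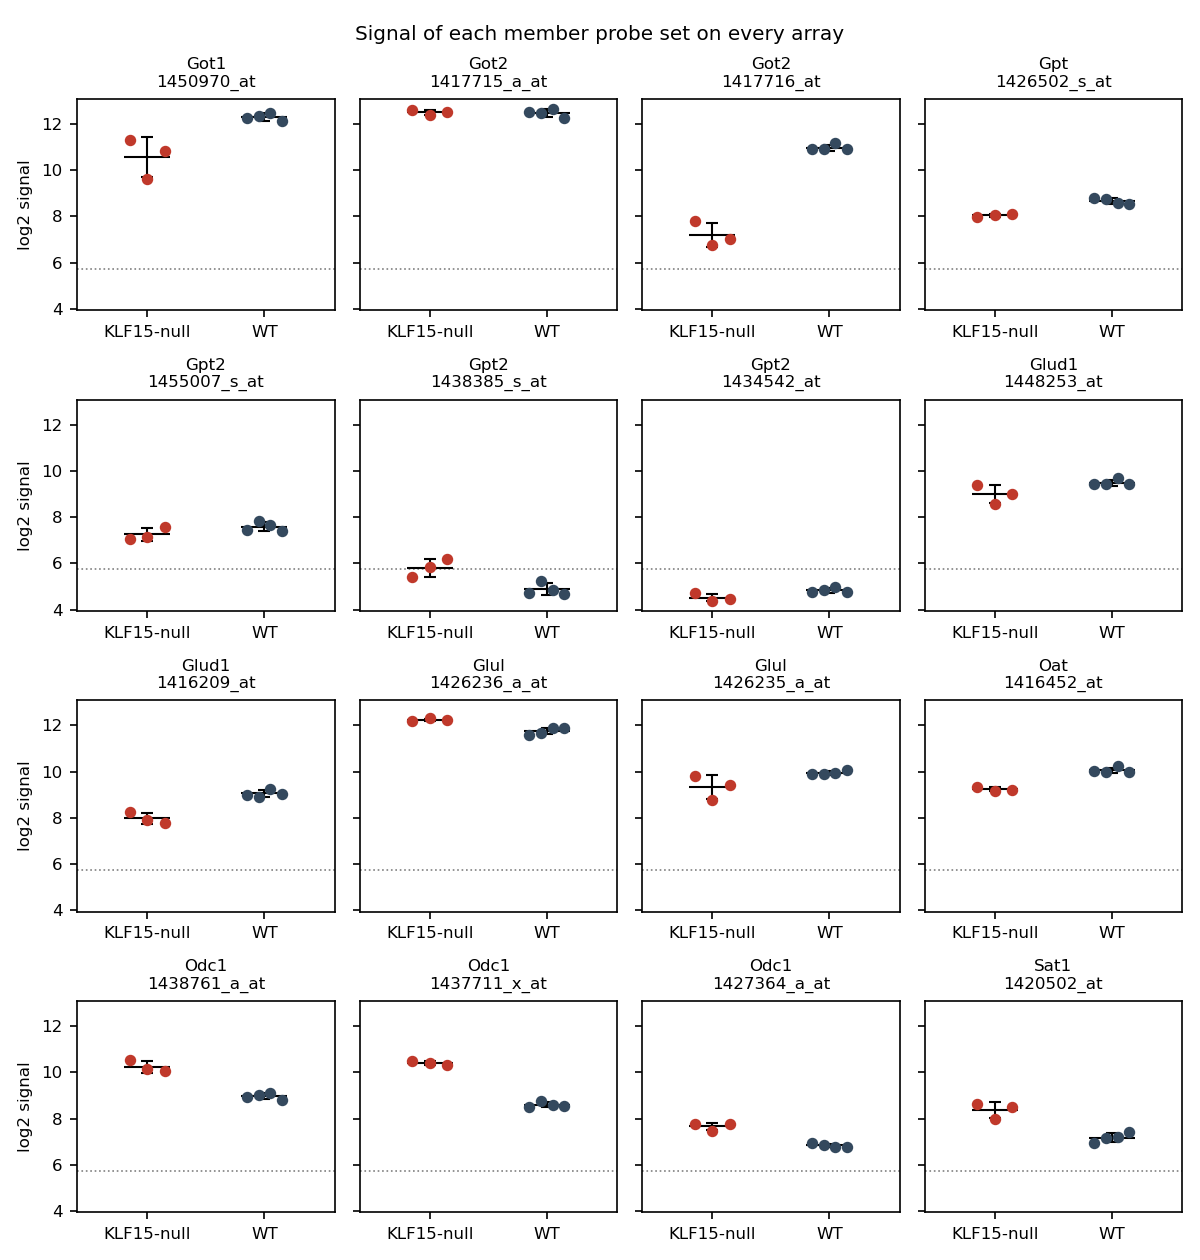
Log2 signal of the 16 probe sets of the 9 genes on every array, with KLF15-null arrays (n = 3, red) left of WT arrays (n = 4, dark) and the mean and SD in black; the dotted line is the level a probe set had to reach on the 7-array mean to be tested. The second probe set of Got2 (1417716_at) reads 6.76 to 7.79 in KLF15-null and 10.90 to 11.17 in WT hearts, while its brighter one (1417715_a_at) overlaps between the groups.

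Upstream sequence is shown for the genes with the largest falls, Got1 and Got2, and for both polyamine genes that rose, Odc1 and Sat1. Factors of the Krüppel-like family are known for binding CACCC and GC boxes, so CACCC was searched on both strands (GGGTG on the other) in the 250 bases before the start of the gene. The sequences are RefSeq's, build GRCm38.p6, written 5′ to 3′ along the gene's strand, with matches in capitals. Got1 lies on the minus strand at chr19:43524606-43524855, Got2 on the minus strand at chr8:95888402-95888651, Odc1 on the plus strand at chr12:17544623-17544872 and Sat1 on the minus strand at chrX:155216450-155216699.
Got1: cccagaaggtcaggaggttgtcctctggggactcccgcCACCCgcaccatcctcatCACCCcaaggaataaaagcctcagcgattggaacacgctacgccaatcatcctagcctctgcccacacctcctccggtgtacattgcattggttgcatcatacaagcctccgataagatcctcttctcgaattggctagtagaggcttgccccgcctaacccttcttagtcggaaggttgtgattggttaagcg
Got2: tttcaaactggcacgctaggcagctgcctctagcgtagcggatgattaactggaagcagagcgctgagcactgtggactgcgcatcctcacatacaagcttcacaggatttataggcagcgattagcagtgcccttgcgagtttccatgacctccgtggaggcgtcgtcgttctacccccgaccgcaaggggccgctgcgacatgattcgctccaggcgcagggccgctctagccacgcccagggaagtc
Odc1: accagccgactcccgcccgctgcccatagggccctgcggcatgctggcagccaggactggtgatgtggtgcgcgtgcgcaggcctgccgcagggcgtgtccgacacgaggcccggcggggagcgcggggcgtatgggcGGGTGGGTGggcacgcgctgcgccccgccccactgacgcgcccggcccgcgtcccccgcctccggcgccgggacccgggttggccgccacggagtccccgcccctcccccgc
Sat1: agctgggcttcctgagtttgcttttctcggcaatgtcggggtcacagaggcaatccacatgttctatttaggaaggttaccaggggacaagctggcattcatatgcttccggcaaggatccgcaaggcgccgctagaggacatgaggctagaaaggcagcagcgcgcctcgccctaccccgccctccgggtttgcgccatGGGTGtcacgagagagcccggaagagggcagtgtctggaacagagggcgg
Got1 had 2 matches, the nearer ending 190 bases before the start, and Got2 had 0. Odc1 had 2 matches that share a base, between 112 and 104 bases before the start, and the farther overlaps a GGGCGG box. Sat1 had 1 match, 50 to 46 bases before the start. An upstream sequence was found for 8 members, of which 6 held at least 1 match and 4 held at least 2, while 52.0% of 32851 promoters of the same length held at least 1 and 21.1% at least 2. GGGCGG, searched the same way, stood in 5 of the 8 and in 32.7% of all promoters. The match is a description of letters and was not tested against binding. Gpt had no entry.

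Got1, the cytosolic aspartate transaminase, was lower on every KLF15-null array. Its probe set read 11.29, 9.62 and 10.84 in KLF15-null hearts, against 12.27, 12.33, 12.48 and 12.10 in WT hearts. The groups did not overlap, and KLF15-null replicate 2 was well below the other two. The difference was -1.72 (SE 0.32, adjusted p = 0.00168), a 3.28-fold lower signal, and it was -1.23 without KLF15-null replicate 2.

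Got2, the mitochondrial aspartate transaminase, was lower on 1 of its 2 probe sets and not past the threshold on the other. The dimmer, 1417716_at, read 7.79, 6.76 and 7.03 in KLF15-null hearts, against 10.91, 10.91, 11.17 and 10.90 in WT hearts. That is a difference of -3.78 (SE 0.22, adjusted p = 1.98e-06), or a 13.7-fold lower signal, the largest change of any member probe set. The brighter, 1417715_a_at, read 12.61, 12.38 and 12.50 in KLF15-null hearts, against 12.53, 12.45, 12.66 and 12.24 in WT hearts. These values overlap, and the difference of 0.03 was not past the threshold (adjusted p = 0.873, 95% interval -0.24 to 0.30). With quantile or with cyclic loess scaling this probe set was called lower, at -0.33 and -0.38. The suffix _a_at marks a probe set whose probes match several transcripts of a gene. Which transcript or end of the message each probe set reads was not analysed here.

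The changes of the 2 Got2 probe sets differed by 3.80 (exact two-sided permutation over the 35 splits of the 7 arrays, p = 0.0286, the smallest these splits allow, and 0.0343 adjusted over the 6 such pairs within a member). A range that wide was rare on the array: 17 of the 2748 genes with several tested probe sets, or 0.619%, reached it, and the median range was 0.83. Whether Got1 changed more than Got2 therefore depends on the probe set. Against the brighter Got2 probe set, the change of Got1 was lower by -1.74 (exact permutation p = 0.0286, and 0.0571 adjusted over the 2 pairs of compartment partners, which is not past the threshold). Against the dimmer one, chosen after its values were seen, the change of Got1 was the smaller fall, by 2.06 (exact permutation p = 0.0286). With the 2 Got2 probe sets averaged the change of Got1 minus that of Got2 was 0.16.

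**Figure D2:**
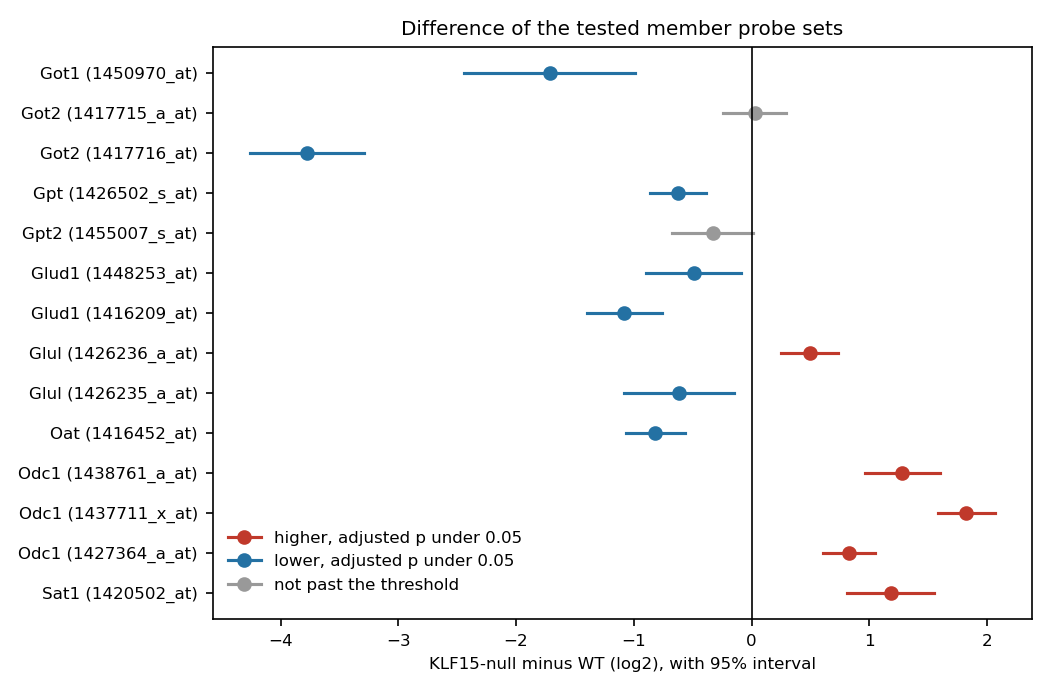
KLF15-null minus WT difference (log2, points) of the 14 tested probe sets with limma's 95% interval (lines), coloured by call. Odc1 and Sat1 lie between 0.83 and 1.82, the lower calls between -0.49 and -3.78, and Glul has 1 probe set on either side of 0.

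Alanine transaminases, which exchange nitrogen between alanine and glutamate, fell for the cytosolic form. Gpt read 7.97, 8.05 and 8.10 in KLF15-null hearts, against 8.80, 8.74, 8.59 and 8.52 in WT hearts. The groups did not overlap and both were tight, with a difference of -0.62 (SE 0.11, adjusted p = 0.000868). Its single probe set carries the suffix _s_at, which marks probes shared by several transcripts that may be of different genes.

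Gpt2, the mitochondrial form, had 1 tested probe set and 2 dim ones. The tested one, 1455007_s_at, carries the suffix _s_at as well. It read 7.04, 7.13 and 7.58 in KLF15-null hearts, against 7.44, 7.83, 7.65 and 7.41 in WT hearts. KLF15-null replicate 3 lay among the WT values, and the difference of -0.33 was not past the threshold (adjusted p = 0.101, 95% interval -0.67 to 0.01). Without KLF15-null replicate 3 it was -0.50 and past the threshold (limma adjusted p = 0.0203). Of the dim probe sets, 1438385_s_at averaged 5.81 ± 0.38 in KLF15-null hearts (SD, n = 3) and 4.88 ± 0.25 in WT hearts (SD, n = 4). The other, 1434542_at, averaged 4.52 ± 0.16 in KLF15-null and 4.83 ± 0.11 in WT hearts (SD, n = 3 and 4). Neither overlapped between the groups, and they point opposite ways. In the fit with no filter on signal both were called, 1438385_s_at higher at 0.94 (adjusted p = 0.00302) and 1434542_at lower at -0.31 (adjusted p = 0.0235), and the higher one runs against the difference of the tested probe set. The changes of Gpt and Gpt2 differed by -0.29, which was not past the threshold (exact permutation p = 0.2, likewise after adjustment over the 2 pairs).

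Glud1, glutamate dehydrogenase, which turns glutamate into α-ketoglutarate and ammonia in mitochondria, was lower on both of its probe sets. On 1416209_at it read 8.26, 7.90 and 7.77 in KLF15-null hearts, against 9.01, 8.92, 9.27 and 9.03 in WT hearts. The groups were clearly apart, at -1.08 (SE 0.14, adjusted p = 0.00018). On the brighter 1448253_at it read 9.39, 8.58 and 9.01 in KLF15-null hearts, against 9.41, 9.41, 9.68 and 9.44 in WT hearts. Here KLF15-null replicate 1 fell just short of the lowest WT value, and the call was narrow, at -0.49 (SE 0.18, adjusted p = 0.044). It was -0.28 and not past the threshold without KLF15-null replicate 2 (limma adjusted p = 0.11), and leaving out each other array except KLF15-null replicate 1 also ended the call. The changes of the 2 probe sets differed by 0.59 (exact permutation p = 0.0286, and 0.0343 adjusted over 6 pairs).

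Glul, glutamine synthetase, which fixes ammonia onto glutamate, was called in opposite directions on its 2 probe sets. The brighter, 1426236_a_at, read 12.20, 12.30 and 12.22 in KLF15-null hearts, against 11.58, 11.67, 11.86 and 11.86 in WT hearts. All KLF15-null values were above all WT values, at 0.49 (SE 0.11, adjusted p = 0.00378). This rise depended on the scaling of the arrays: it was 0.07 with quantile and 0.13 with cyclic loess scaling, not past the threshold with either. The dimmer, 1426235_a_at, read 9.80, 8.78 and 9.43 in KLF15-null hearts, against 9.91, 9.91, 9.92 and 10.07 in WT hearts. The WT values were close together and the KLF15-null values wide apart, with a difference of -0.62 (SE 0.21, adjusted p = 0.0316) that moved to -0.34 without KLF15-null replicate 2 and lost its call without any single WT array or without KLF15-null replicate 3.

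The 2 Glul changes differed by 1.11 (exact permutation p = 0.0286, and 0.0343 adjusted over 6 pairs), and their mean gave -0.06, not past the threshold (adjusted p = 0.72). Opposite calls within a gene were common, in 21.0% of the 2748 genes with several tested probe sets. So no direction is given here for Glul as a gene. Glul is also known from endothelial cells. Of the 7 endothelial markers, all bright enough to test, 2 were lower and 0 higher. Among all genes tested 19.6% were lower and 27.4% higher. The lower markers were Pecam1 (-2.24) and Tie1 (-0.77), and the rest were not past the threshold. Linear signals of the 7 markers summed to 1711 to 2412 on KLF15-null arrays and 2146 to 2602 on WT arrays. The part of endothelial cells in the Glul values was not tested.

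Oat, ornithine aminotransferase, was lower in KLF15-null hearts with little spread. Its probe set read 9.35, 9.16 and 9.21 in KLF15-null hearts, against 10.04, 9.99, 10.23 and 9.97 in WT hearts. The gap between the groups was several times the spread within either, at -0.82 (SE 0.11, adjusted p = 0.000232). The call held under all 15 alternatives, between -0.72 and -1.02.

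Odc1, ornithine decarboxylase, the rate-limiting enzyme of polyamine synthesis, was higher on all 3 of its probe sets. The brightest, 1438761_a_at, read 10.55, 10.14 and 10.06 in KLF15-null hearts, against 8.92, 9.04, 9.11 and 8.80 in WT hearts. On 1437711_x_at, whose suffix marks probes that may cross-hybridize, it read 10.50, 10.40 and 10.34 in KLF15-null hearts, against 8.49, 8.75, 8.59 and 8.54 in WT hearts. The dimmest, 1427364_a_at, read 7.76, 7.48 and 7.76 in KLF15-null hearts, against 6.93, 6.85, 6.79 and 6.78 in WT hearts. No probe set overlapped between the groups, and the order of the sizes did not follow brightness. The differences were 1.28 (SE 0.14, adjusted p = 7.18e-05), 1.82 (SE 0.11, adjusted p = 2.30e-06) and 0.83 (SE 0.10, adjusted p = 0.000108), or 1.77 to 3.54-fold. The _x_at probe set rose more than either of the others, 0.54 more than the brightest and 0.997 more than the dimmest (exact permutation p = 0.0286 for each, and 0.0343 adjusted over 6 pairs). The brightest and the dimmest differed by 0.45, not past the threshold (exact permutation p = 0.0857, before and after adjustment), unlike the other 5 pairs.

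Sat1, spermidine/spermine N1-acetyltransferase, which acetylates polyamines for breakdown or export, was higher as well. Its single probe set read 8.62, 7.98 and 8.49 in KLF15-null hearts, against 6.94, 7.16, 7.22 and 7.40 in WT hearts. The lowest KLF15-null value stood above the highest WT value, with a difference of 1.18 (SE 0.16, adjusted p = 0.000268), or 2.27-fold. Sat1 is X-linked. The genes of the first enzyme of polyamine synthesis and of the acetyltransferase of polyamine breakdown were thus both higher in these hearts.

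Polyamine genes are also active in leukocytes. Among 10 macrophage and monocyte markers, 8 of them testable, Cd14, Lyz2 and Csf1r (3) were higher and C1qa and C1qb (2) lower. Their linear signals summed to 4447 to 6282 on KLF15-null arrays and 2696 to 4593 on WT arrays, and Itgam and Fcgr1 lay below the filter level. Of the neutrophil markers S100a8 and S100a9 were higher and Csf3r and Elane were not past the threshold, with Mpo below the filter level. The neutrophil sum was 759 to 937 on KLF15-null arrays and 456 to 563 on WT arrays. Markers of stromal cells were called in both directions. Of the 7 fibroblast markers 1 was higher, 2 were lower and the rest were not past the threshold. Of the 6 smooth muscle and pericyte markers 1 was higher, 1 was lower and the rest were not past it. Among all genes tested 27.4% were higher and 19.6% lower. The sum of the 7 fibroblast markers was 4709 to 5537 on KLF15-null arrays and 5633 to 10284 on WT arrays, with Dcn and Lum lower (-1.25 and -1.38) and Pdgfra higher (0.53). That of the 6 smooth muscle and pericyte markers was 10232 to 11601 on KLF15-null arrays and 6509 to 9641 on WT arrays, with Pdgfrb higher (1.71) and Myh11 lower (-1.44). The part of any of these cells in the rises of Odc1 and Sat1, or in the other members' values, was not tested.

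**Figure D3:**
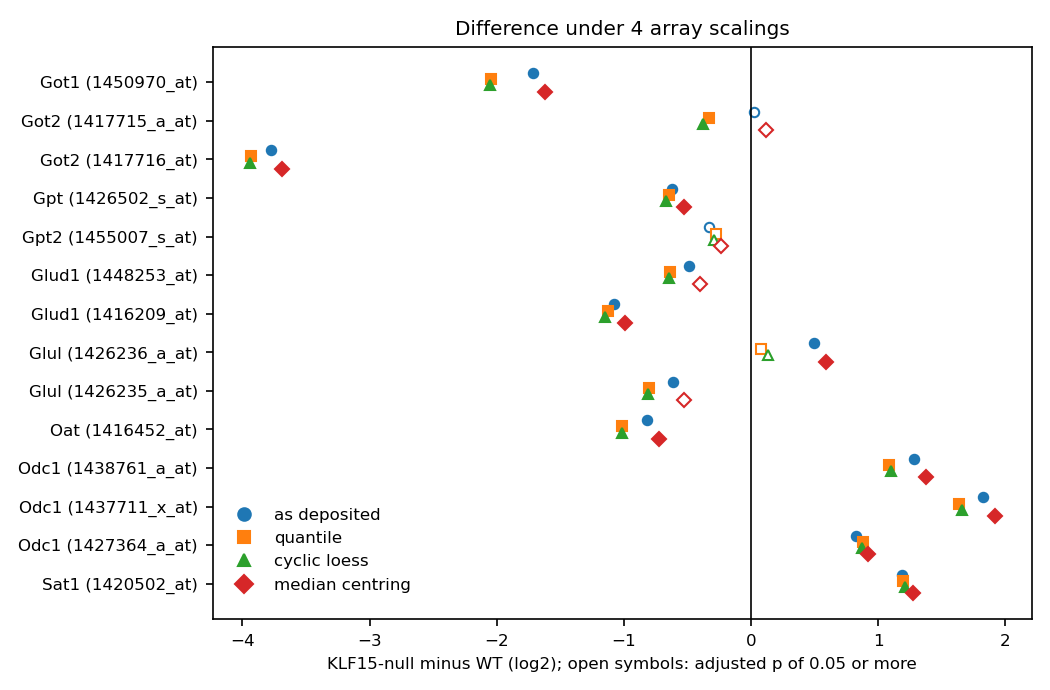
KLF15-null minus WT difference (log2) of the 14 tested probe sets under the deposited scale and 3 other array scalings, with filled symbols for an adjusted p under 0.05. Got1, the dimmer Got2 probe set, Gpt, Glud1 1416209_at, Oat, Odc1 and Sat1 keep direction and call under all 4. Got2 1417715_a_at and Glul 1426236_a_at change their call with quantile and cyclic loess scaling, and Glud1 1448253_at and Glul 1426235_a_at with median centring.

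Genes around these enzymes were taken from 5 lists of carriers and enzymes, 52 genes in all, of which 37 had a probe set with a single symbol and 29 were tested on their brightest probe set. Among these 29 genes 13 rose, 9 fell and 7 were not called, beside 27.4% higher and 19.6% lower of all 8404 genes tested. Their median difference was 0.11, beside 0.02 for all genes.

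In the list of the malate-aspartate shuttle and glutamate carriers 3 of 5 tested genes were lower, 1 was higher and 1 was not past the threshold, with a median of -0.64. Of the 7 listed genes Slc25a12 and Slc25a18 had no probe set with a single symbol, so they were not read here. Slc25a13, the mitochondrial aspartate-glutamate carrier citrin, read 7.19, 7.27 and 7.55 in KLF15-null hearts, against 9.15, 9.17, 9.27 and 9.34 in WT hearts (-1.90, adjusted p = 2.62e-06). Slc25a11, the malate-oxoglutarate carrier, read 9.77, 8.69 and 9.53 in KLF15-null hearts, against 11.02, 11.01, 11.28 and 11.05 in WT hearts (-1.76, adjusted p = 0.00017). Both carriers were well apart between the genotypes, and KLF15-null replicate 2 was the lowest array for Slc25a11 as for Got1. The glutamate carrier Slc25a22 fell by 0.64 (adjusted p = 0.00229). Mdh2, mitochondrial malate dehydrogenase, differed by 0.37 (adjusted p = 0.0121) as deposited, but by 0.07 with quantile and -0.09 with cyclic loess scaling, neither of these past the threshold. With either scaling 4 of the 5 genes were lower and 0 higher, the fourth being Mdh1, cytosolic malate dehydrogenase, on its brightest probe set. As deposited that probe set was not past the threshold (-0.08, adjusted p = 0.574). Both other tested probe sets of Mdh1 were higher, at 0.53 and 0.26 (adjusted p = 0.0183 and 0.0495), and both carry the suffix _x_at.

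In the list of glutamine and asparagine enzymes and carriers 4 of 7 tested genes were higher and 1 lower, with a median of 0.39. Slc38a2, a sodium-coupled neutral amino acid transporter, read 12.43, 12.55 and 12.29 in KLF15-null hearts, against 10.81, 11.14, 11.18 and 10.78 in WT hearts (1.44, adjusted p = 2.53e-05). Its relative Slc38a3, a glutamine transporter, went the other way, by -1.07 (adjusted p = 0.000306). The large neutral amino acid transporter gene Slc7a5 and the glutamine carrier gene Slc1a5 rose by 0.76 and 0.45 (adjusted p = 0.000756 and 0.003). Slc7a6, named after its values were seen, was not past the threshold on its brighter probe set (0.07, adjusted p = 0.698). Its dimmer probe set was higher, at 0.74 (adjusted p = 0.000365).

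Among other transaminases 8 of 10 listed genes had a probe set with a single symbol, and only 3 were bright enough to test. Of these 3 genes 2 were lower, with a median of -1.41. Kyat3, a kynurenine aminotransferase, read 6.40, 6.43 and 6.50 in KLF15-null hearts, against 8.39, 8.35, 8.19 and 8.05 in WT hearts (-1.80, adjusted p = 2.06e-06). Bcat2, the mitochondrial branched-chain transaminase, was lower by -1.41 (adjusted p = 4.58e-05). Of the transaminase genes outside the 9 members, Tat was not past the threshold, at -0.18 (adjusted p = 0.115), named after its value was seen.

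In the list from proline and arginine to ornithine 2 of 4 tested genes were higher and 2 lower, with a median of -0.23. Prodh and Aldh4a1, which oxidize proline to glutamate, were lower, at -0.89 and -1.52 (adjusted p = 0.00018 and 1.11e-05). The mitochondrial ornithine carrier gene Slc25a15 rose by 0.43 (adjusted p = 0.00556). Aldh18a1, which makes the precursor of proline and ornithine from glutamate, rose by 2.26 on an _x_at probe set (adjusted p = 2.46e-05). That probe set averaged 5.54 in WT hearts, below the filter level of 5.74, and 7.80 in KLF15-null hearts. It was thus tested only through its KLF15-null values, and it makes Aldh18a1 count as higher in this list. The other tested probe sets of Aldh18a1 differed by -0.18 and 0.19, neither past the threshold.

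**Figure D4:**
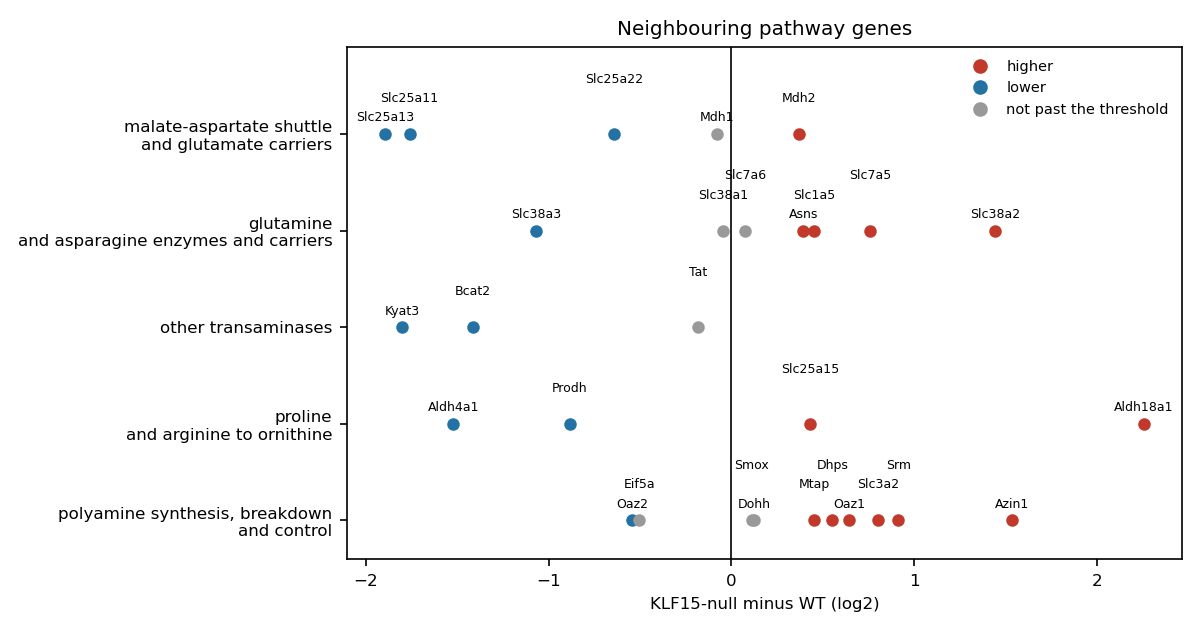
KLF15-null minus WT difference (log2) of the 29 tested genes of the 5 surrounding lists, each on its brightest probe set, coloured by call. The 2 mitochondrial carriers Slc25a13 and Slc25a11 lie at -1.90 and -1.76, and 6 of 10 polyamine genes are higher.

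In the list of polyamine synthesis, breakdown and control 6 of 10 tested genes were higher, 1 was lower and 3 were not past the threshold, with a median of 0.50. Azin1, which codes for the antizyme inhibitor that protects ornithine decarboxylase, read 10.55, 10.20 and 10.03 in KLF15-null hearts, against 8.55, 8.84, 8.87 and 8.64 in WT hearts (1.54, adjusted p = 2.99e-05), and its second probe set rose by 1.05. Srm, spermidine synthase, read 7.79, 7.72 and 7.63 in KLF15-null hearts, against 6.89, 6.78, 6.79 and 6.73 in WT hearts (0.91, adjusted p = 2.57e-05). For both genes every KLF15-null value was above every WT value. Slc3a2, the heavy chain that partners Slc7a5, rose by 0.80 (adjusted p = 0.00153). Oaz1, an antizyme that inhibits ornithine decarboxylase, rose by 0.65 (adjusted p = 0.0027), a size that was 0.25 with quantile and 0.28 with cyclic loess scaling. Oaz2, a second antizyme, was the lower gene, at -0.54 (adjusted p = 0.0293) on its brighter probe set and -1.45 (adjusted p = 1.73e-05) on its dimmer one, named after its values were seen. Probe sets disagreed for others of the list, also named after their values were seen. Mtap, which salvages the methylthioadenosine left by polyamine synthesis, was counted as higher at 0.45 on its brightest probe set. On 2 dimmer ones Mtap was lower, at -0.48 and -0.69 (adjusted p = 0.0156 and 0.000801). Dhps was counted as higher at 0.55 on its brighter probe set, while its dimmer one was not past the threshold (-0.16, adjusted p = 0.449). Eif5a, the translation factor that carries the spermidine-derived residue hypusine, was not past the threshold on its brighter probe set (-0.51, adjusted p = 0.0686). It was lower on the other, an _x_at probe set (-1.72, adjusted p = 7.39e-05). The brighter one was called lower with quantile and with cyclic loess scaling, at -0.90 and -0.83 (limma adjusted p = 0.00101 and 0.00152). The median of the list was 0.24 with quantile and 0.27 with cyclic loess scaling. It held 5 higher and 2 lower genes (Oaz2 and Eif5a) with either, and 6 higher and 0 lower after median centring.

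Likeness to a member over the 7 arrays was measured by Pearson's r, as a description, since genotype alone aligns many genes. Genes with clone or model names were left out, also from the counts below. The genes that followed a member most closely are named here. For Got1 they were Bcam (r = 0.999) and Fxyd1 (r = 0.998), for Oat Prkaca (r = 0.997) and Fam81a (r = 0.996), and for Gpt Ccrl2 (r = 0.997) and Yae1d1 (r = 0.993). Odc1 was followed by Eif4g3 and Ss18 (r = 0.997 for each), and Sat1 by Mvp (r = 0.996) and Srxn1 (r = 0.993). The brighter Glud1 probe set was followed by Xiap and Tpp2 (r = 0.999 for each), and the brighter Glul probe set by Pf4 and Pik3c2a (r = 0.996 for each). For Got1 462 genes, and for Odc1 445 genes, reached an r of 0.95 or more. The probe sets not past the threshold had fewer such genes: the brighter one of Got2 was followed by Gramd4 (r = 0.971) and Cd2bp2 (r = 0.955), and that of Gpt2 by Trappc5 (r = 0.948) and Sc5d (r = 0.933).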

How the data were processed

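Per the labels' protocols, total RNA of flash-frozen hearts was extracted with Trizol, checked on a Bioanalyzer and labelled with biotin by the Affymetrix one-cycle 3' kit. The authors deposited 1 log2 signal for each probe set and array, as the range of 3.20 to 14.28 shows. The submitters' processing notes name GCOS. The sources used here do not describe summarization or scaling. The number of arrays limits the precision.

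Probe sets were named through the platform annotation, with symbols checked by Entrez number (0 updated): 20380 had 1 symbol, 691 several and 1555 none. Those with a 7-array mean at or above the 40th percentile (13576) were fitted with limma 3.58.1 (R 4.3.3; two-sided, no covariate, with an intensity trend) and adjusted by Benjamini-Hochberg over that whole set. Every adjusted p of a gene in this text comes from that limma model unless a permutation is named. A surrounding gene is its brightest kept probe set, and up to 4 called genes per list are named, by smallest p. All member probe sets are named, and the 2 genes most like each member by Pearson's r, clone and model names left out. Per-array differences between probe sets were compared by exact permutation. The procedure was tested on simulated data. The members, lists and tests were chosen with earlier results of these data known.

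Replicate numbers were not treated as pairs in the main fit. Deviations of same-numbered arrays correlated at -0.11, 0.00 and 0.19, too few values to decide whether the numbers pair the arrays. Alternatives were 2 other filters, 3 scalings, no intensity trend, array weights, a replicate block and each array left out. Averaging the probe sets of a member was added after seeing the data, as were the scalings of the comparisons within a member.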

Additional observations from a re-analysis of the deposited data

Results flagged for a closer look

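In 3 of 16 probe sets 1 WT array stood apart from the other 3 by a gap of 0.882 to 0.969 of the group's range, past Dixon's 95% critical value for 4 samples, where chance flags about 1 in 20 groups. The groups of 3 KLF15-null arrays are too small for this test. WT replicate 3 read 11.17 on the dimmer Got2 probe set (1417716_at) and 9.68 on Glud1 1448253_at, above the other WT arrays. WT replicate 4 read 10.07 on Glul 1426235_a_at, above the other WT arrays.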

How the results depend on the processing

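Each of the 14 tested probe sets was refitted under 15 alternatives, and 186 of the 210 values kept direction and side of the threshold, while 18 lost the call, 1 gained it (Gpt2 without KLF15-null replicate 3) and 5 changed sign. All 5 sign changes were of Got2 1417715_a_at, which was at 0.03: -0.33 with quantile and -0.38 with cyclic loess scaling, both called lower, and -0.051 with the replicate block, -0.051 without WT replicate 4 and -0.030 without KLF15-null replicate 1, none of these past the threshold. With each array left out it ranged from -0.051 to 0.090. The 18 lost calls were of Glud1 1448253_at (9), Glul 1426235_a_at (7) and Glul 1426236_a_at (2). The members called stayed at 5 higher and 5 to 7 lower with each array left out. With no filter they were 6 higher and 7 lower of all 16, the dim probe sets of Gpt2 adding 1 call in each direction while Glud1 1448253_at lost its call. Counted as genes by the mean of their probe sets they were 2 higher and 5 lower. They were fewer because probe sets of a gene count once and because Glul lost its opposite calls. The mean of its probe sets differed by -0.06, not past the threshold (limma adjusted p = 0.72). Got2 counted as lower, at -1.88 (limma adjusted p = 2.59e-05), although its brighter probe set by itself was not past the threshold. Over all probe sets, leaving out an array gave 3105 to 3936 higher and 2750 to 3433 lower, against 3637 and 3235. Of the called probe sets 52.9% were higher as deposited and 63.3% after median centring. The surrounding genes gave 12 to 13 higher and 8 to 10 lower with each array left out. The change of Got1 minus that of Got2 was -1.74 and lay between -2.04 and -1.32 with each array left out, and it turned to 0.16 with the mean of the Got2 probe sets (exact permutation p = 0.571). The change of Gpt minus that of Gpt2 was -0.36 to -0.16 with each array left out. With an array left out the exact test cannot go below 0.0667, so it cannot pass there. With the replicate block both differences kept their direction, at -1.73 and -0.28, where 3 pairs allow no exact p below 0.25. Among the members the block ended the calls of Glud1 1448253_at (-0.51, adjusted p = 0.0696) and Glul 1426235_a_at (-0.58, adjusted p = 0.0656) and no other. The planned filter alternatives do not alter the exact comparisons and were not run for them.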
